A study of Mus musculus with 3 samples.

Results

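Inducible chemokines of lung endothelium were taken here as 9 genes: the ligands Cxcl1, Cxcl2, Cxcl9, Cxcl10, Cxcl16, Ccl2, Ccl7 and Cx3cl1, and the chemokine-binding receptor Ackr1. All 9 were found by symbol among the 32285 genes of the deposited count tables. They were measured as UMIs, tags that each mark 1 captured RNA molecule, in endothelial cell (EC) barcodes of mouse lung. A barcode counted as endothelial when it had 1000 to 5000 detected genes, less than 20% of UMIs from mitochondrial genes, and at least 2 UMIs of Pecam1 and Cdh5 together. Levels are given as CPM, UMIs of the gene per 1000000 UMIs of all genes in the same barcodes. Only 3′ ends of transcripts were counted, so 1 molecule gives 1 UMI whatever its length.

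Chemokines are small secreted or cell-bound proteins that attract leukocytes through G protein-coupled receptors, and ECs present them on the inner wall of the vessel. CXCL16 and CX3CL1 are made as transmembrane proteins and shed by proteases, and bind CXCR6 and CX3CR1. CXCL9 and CXCL10 are induced by interferons and attract T cells and NK cells through CXCR3, CXCL1 and CXCL2 attract neutrophils through CXCR2, and CCL2 and CCL7 attract monocytes through CCR2. ACKR1 binds many inflammatory chemokines without G protein signaling and is known as a marker of venules.

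The study asked how lung ECs respond to melanoma cells arriving in the lung, and 3 single-cell libraries of it were analysed here, 1 for each group. All mice were male wild-type C57BL/6 animals aged 8 to 10 weeks. The control group received 100 µl PBS into the tail vein and was taken after 6 h. Mice of the other groups received 200000 B16-F10 cells, a pigmented melanoma line of the same strain, in 100 µl PBS and were taken after 6 h or 30 h. The cells of a group were pooled before the library was made. The labels give 2 mice per treatment, whereas the methods describe pools of 3 for the later experiments, to which a set with a 30 h library and this sort would belong, so the labels and the methods conflict. ECs were sorted as Pecam1+ Ptprc- cells after the lungs had been digested warm with collagenase, and dye-labelled melanoma cells were added to the library taken at 6 h. Since each group is a single library, nothing was checked across replicates and no p-value is given: the 95% intervals below are exact and cover counting error only. All PBS mice were taken at 6 h, so the time and the melanoma cells cannot be told apart in the 30 h library.

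The members pair up in the genome (GRCm38). Cxcl1 (chromosome 5, 90891241 to 90893115, plus strand) and Cxcl2 (90903871 to 90905938, plus strand) are 10755 bases apart. Cxcl9 (chromosome 5, 92321347 to 92328079, minus strand) and Cxcl10 (92346638 to 92348889, minus strand) are 18558 bases apart, and Ccl2 (chromosome 11, 82035571 to 82037453) and Ccl7 (82045712 to 82047525) are 8258 bases apart on the plus strand. Cxcl16 is at chromosome 11, 70453983 to 70459984, on the minus strand. Cx3cl1 is at chromosome 8, 94772009 to 94782427, on the plus strand. Ackr1 is at chromosome 1, 173331886 to 173333750, on the minus strand.

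The bases just before the start of the first 2 pairs are printed because a few barcodes held much of the Cxcl9 and Cxcl10 RNA together, and some held both Cxcl1 and Cxcl2. The sequences are from RefSeq (GRCm38.p6), read 5′ to 3′ on the gene's strand, and end before the annotated start of the gene. Capitals mark matches on either strand to the kappaB consensus of NF-kB or to 3 other motifs: a repeat of GAAA after 2 bases of any kind, found in interferon-stimulated response elements, TTCNNNGAA, found in STAT sites, and TGANTCA, the AP-1 site.
Cxcl1 (chr5:90890995-90891240, plus strand): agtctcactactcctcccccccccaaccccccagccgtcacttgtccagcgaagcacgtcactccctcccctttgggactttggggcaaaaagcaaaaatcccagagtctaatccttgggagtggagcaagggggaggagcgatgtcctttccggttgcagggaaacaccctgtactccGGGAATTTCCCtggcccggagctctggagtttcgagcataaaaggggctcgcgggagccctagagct
Cxcl2 (chr5:90903649-90903870, plus strand): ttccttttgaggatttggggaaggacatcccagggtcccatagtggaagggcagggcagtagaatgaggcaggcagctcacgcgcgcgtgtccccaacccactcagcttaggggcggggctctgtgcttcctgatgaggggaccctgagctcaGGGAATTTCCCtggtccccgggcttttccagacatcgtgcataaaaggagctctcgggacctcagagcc
Cxcl9 (chr5:92328080-92328329, minus strand): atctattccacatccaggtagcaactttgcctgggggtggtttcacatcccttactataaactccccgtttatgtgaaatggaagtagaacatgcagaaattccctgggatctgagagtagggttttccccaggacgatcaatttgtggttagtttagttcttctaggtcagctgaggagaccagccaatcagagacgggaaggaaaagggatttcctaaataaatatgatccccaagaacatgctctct
Cxcl10 (chr5:92348890-92349139, minus strand): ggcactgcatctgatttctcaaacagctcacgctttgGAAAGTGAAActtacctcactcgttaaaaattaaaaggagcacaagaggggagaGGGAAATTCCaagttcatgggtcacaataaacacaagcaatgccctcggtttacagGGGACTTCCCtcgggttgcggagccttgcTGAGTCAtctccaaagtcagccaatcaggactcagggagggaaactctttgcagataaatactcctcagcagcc

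Cxcl1 and Cxcl2 each held the kappaB match GGGAATTTCC, with its first base 67 bases before the start in Cxcl1 and 69 bases before it in Cxcl2. In both, the match on the other strand is shifted by 1 base and overlaps it. Cxcl10 held 2 kappaB matches, GGGAAATTCC from 159 and GGGACTTCCC from 103 bases before the start. It also held the GAAA repeat, as GAAAGTGAAA, from 213 and the AP-1 match TGAGTCA from 74 bases before it. Cxcl9 held none of the 4 motifs in its window. Of 32817 mouse promoters with 250 bases before the start, 3.90% held the kappaB consensus, 2.97% the GAAA repeat, 7.01% TTCNNNGAA and 6.75% TGANTCA. A match is a run of letters, not a site shown to be bound, and matches of different motifs did not overlap in these windows. The promoter table used here matched 6 of the 9 members, and Cxcl16, Ccl2 and Ccl7 were not matched in it.

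The endothelial barcodes numbered 11231 in the control, 10583 at 6 h and 9278 at 30 h, with median depths of 7782, 8033 and 8675.5 UMIs. Few barcodes within the same gene and mitochondrial limits lay outside the gate, 275, 345 and 235, and they were shallower, with medians of 2504, 2632 and 2770 UMIs. Pairs of libraries shared 22 to 38 endothelial barcode sequences. All 5 EC markers (Pecam1, Cdh5, Cldn5, Tie1 and Egfl7) were found in each library, with summed levels between 6226 and 7437 CPM. Some endothelial barcodes also held at least 2 UMIs of markers of leukocytes, platelets, stromal, epithelial or melanoma cells: 15.8% of them in the control, 22.2% at 6 h and 20.3% at 30 h. The remaining 9456, 8232 and 7399 barcodes are called ECs without other-type RNA for short, although they could hold 1 such UMI, and red cell markers and 3 genes abundant as free RNA (Lyz2, Scgb1a1 and Sftpc) were not counted. In them the 4 red cell markers still summed to 3022, 1570 and 911 CPM, the 5 epithelial markers to 433, 165 and 116 CPM, and the 8 macrophage and monocyte markers to 29.7, 30.5 and 23.2 CPM. Droplets with 51 to 300 UMIs were read as empty, and the RNA free in them made up an estimated 4.62%, 5.28% and 7.55% of endothelial UMIs.

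The members covered a wide range of levels. In the control, Cxcl16 and Cx3cl1 were the most abundant members at 45.3 and 33.4 CPM, Cxcl10 and Cxcl9 followed (6.64 and 4.33 CPM), and the other 5 members were at or under 1.40 CPM. At 6 h, Cxcl16, Cxcl10 and Cxcl2 were at least 1.5-fold higher than in the control on the log2(CPM + 1) scale and Cxcl9 was lower. Of these calls, that of Cxcl9 turned without other-type RNA and was lost without 1 barcode. That of Cxcl2 was lost without called doublets and with CPM + 5, as given below. Of the 10175 genes that averaged 5 CPM or more, 1.80% were higher and 1.14% lower by this measure, and 2 of the 3 members with such a mean were among the higher. Of the 24942 genes with any UMI, 1.18% were higher and 0.722% lower. The median log2 ratio of the 9 members was 0.29, against -0.01 over the genes of at least 5 CPM. That member median was 0.04 with the empty droplet profile subtracted and 0.10 with CPM + 5, against -0.01 over the genes in both. Under the other settings it was 0.25 to 0.32. At 30 h against the control, only Cx3cl1 among the members was higher past 1.5-fold and only Ccl2, which averaged under 5 CPM, was lower, a call that was lost without 1 control barcode. The Cx3cl1 call (log2 difference 0.63) was near the limit and was lost with the mean of barcode CPM (0.56) and with CPM + 5 (0.58). Of the genes of at least 5 CPM, 4.24% were higher and 4.39% lower, and of all genes with any UMI 2.86% and 2.48%. The 30 h library against the 6 h library had 0 members higher and 3 lower, namely Cxcl16, Cxcl10 and Cxcl2, the last of which averaged under 5 CPM. Here 4.69% of the genes of at least 5 CPM were higher and 4.61% lower, and 3.13% and 2.73% of all genes with any UMI. Of the genes past 1.5-fold at 30 h against the control, 49.1% were higher, and 64.2% with TMM scaling, which left the members' counts at 1 and 1.

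**Figure D1:**
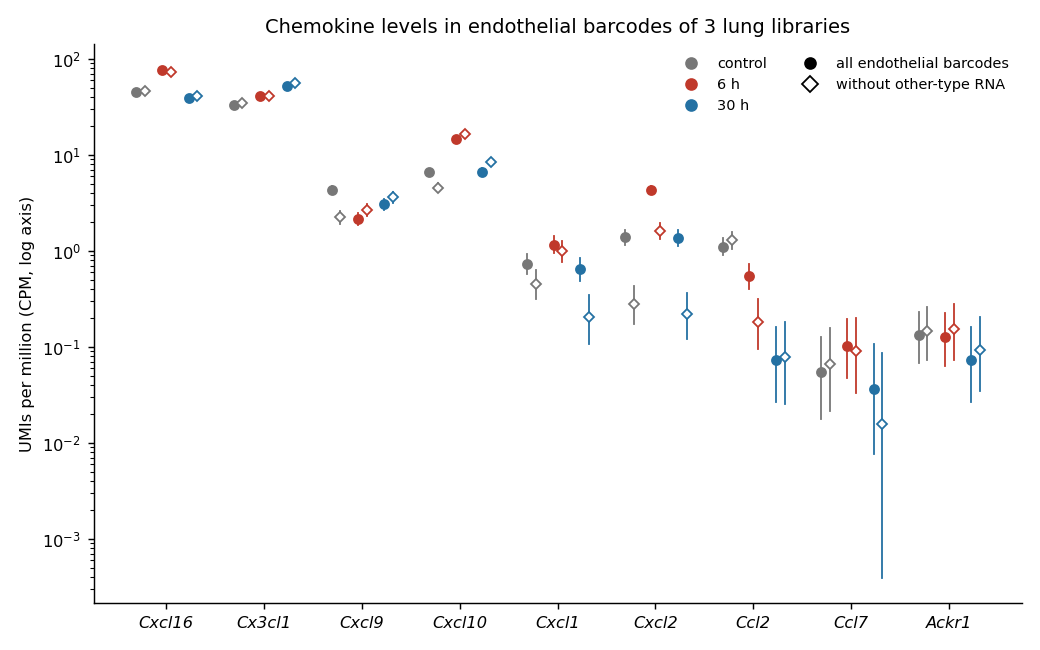
Level of each member in the 3 libraries, in CPM on a log axis. Filled circles are all endothelial barcodes, open diamonds those without other-type RNA, and lines are exact 95% Poisson intervals for counting error. Cxcl16 went from 45.3 (control) to 76.2 (6 h) and 39.5 CPM (30 h) and Cx3cl1 from 33.4 to 41.0 and 52.3 CPM, whereas Ccl7 and Ackr1 reached at most 0.103 and 0.132 CPM.

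Cxcl16, a transmembrane chemokine that also takes up oxidized lipoprotein, was highest at 6 h. It was at 45.3 CPM in the control (4119 UMIs), 76.2 CPM at 6 h (6655 UMIs) and 39.5 CPM at 30 h (3222 UMIs). The level at 6 h was 1.68 times that of the control (1.62 to 1.75), and the level at 30 h was 0.872 times (0.833 to 0.914). Without other-type RNA the ratio at 6 h was 1.59 (1.53 to 1.67). Part of the difference lay in barcodes with many Cxcl16 UMIs: those with 5 to 19 UMIs numbered 57, 236 and 56, and held 8.06%, 26.6% and 9.78% of all Cxcl16 UMIs. With each barcode thinned to 2000 UMIs, 8.05% of ECs had a Cxcl16 UMI in the control, 11.2% at 6 h and 6.74% at 30 h (23.6%, 31.2% and 22.1% without thinning). The free RNA moved in the same order, with Cxcl16 at 60.1, 113 and 48.7 CPM in empty droplets. Barcodes outside the gate had thinned shares of 5.63%, 7.17% and 5.37%.

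ECs without other-type RNA were sorted into classes by marker genes that are no members. General capillary cells (gCap-like, 6046, 5246 and 4276 barcodes) line most alveolar capillaries, and aerocytes (aCap-like, 1304, 992 and 1206) are the large cells of gas exchange. Artery-like (114, 87 and 157), vein-like (556, 373 and 421) and LEC-like cells made up the rest, and 1387, 1497 and 1298 barcodes stayed unclassed, with lower median depths of 4065 to 5337.5 UMIs. Shares of these classes were not compared between libraries.

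Cxcl16 was higher in aCap-like than in gCap-like cells in each library, by 2.28 times in the control (2.12 to 2.46), 1.59 times at 6 h (1.47 to 1.71) and 4.03 times at 30 h (3.702 to 4.399). In gCap-like cells it stood at 38.5, 61.5 and 24.4 CPM, so that the level was 1.60 times the control at 6 h (1.503 to 1.696) and 0.634 times at 30 h (0.584 to 0.687). In aCap-like cells it was near constant at 88.1, 97.7 and 98.6 CPM, with ratios to the control of 1.11 (1.02 to 1.21) and 1.12 (1.03 to 1.21). The intervals of gCap-like and aCap-like cells do not overlap at either time. Vein-like cells had 24.1, 55.9 and 24.7 CPM, 2.32 times the control at 6 h (1.86 to 2.91). Artery-like cells had 73.9, 96.6 and 59.8 CPM, and their ratio at 6 h, 1.31 (0.926 to 1.85), was not distinguishable from 1 at this depth. The unclassed barcodes were the highest of all at 6 h, at 116 CPM against 36.7 in the control and 27.5 at 30 h.

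Cx3cl1, fractalkine, tethers cells that bear CX3CR1, such as patrolling monocytes, to the endothelium. It was at 33.4 CPM in the control (3032 UMIs), 41.0 CPM at 6 h (3578 UMIs) and 52.3 CPM at 30 h (4259 UMIs). Unlike for Cxcl16, the highest library was that of 30 h, at 1.57 times the control (1.49 to 1.64), and the 6 h library was at 1.23 times (1.17 to 1.29). After thinning, 5.94%, 6.57% and 8.48% of ECs had a UMI, and 0.939%, 0.717% and 1.95% of barcodes outside the gate (19.5%, 21.8% and 26.0% of ECs without thinning). Cx3cl1 in empty droplets was at 27.9, 29.5 and 44.4 CPM. Leaving out the barcodes with other-type RNA gave 34.9, 41.6 and 55.7 CPM.

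By class, the 30 h difference in Cx3cl1 was large in aCap-like cells and small in gCap-like cells. aCap-like cells had 63.5, 70.0 and 145 CPM, and the 30 h level was 2.29 times the control (2.11 to 2.48). Artery-like cells had 45.0, 53.7 and 71.3 CPM (1.59 times at 30 h, 1.09 to 2.33). gCap-like cells had 31.3, 34.4 and 34.8 CPM, 1.11 times at 30 h (1.031 to 1.1997), and vein-like cells 14.97, 16.9 and 14.5 CPM, 0.970 times (0.687 to 1.36). The order aCap-like, artery-like, gCap-like, vein-like was the same in all 3 libraries, although artery-like and aCap-like cells at 6 h differed by less than their counting error (1.305 times, 0.949 to 1.84). LEC-like cells held 0, 1 and 2 Cx3cl1 UMIs. The unclassed barcodes followed another order, with 21.4, 54.6 and 25.5 CPM, 2.55 times the control at 6 h (2.12 to 3.08) and 1.19 times at 30 h (0.965 to 1.48).

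**Figure D2:**
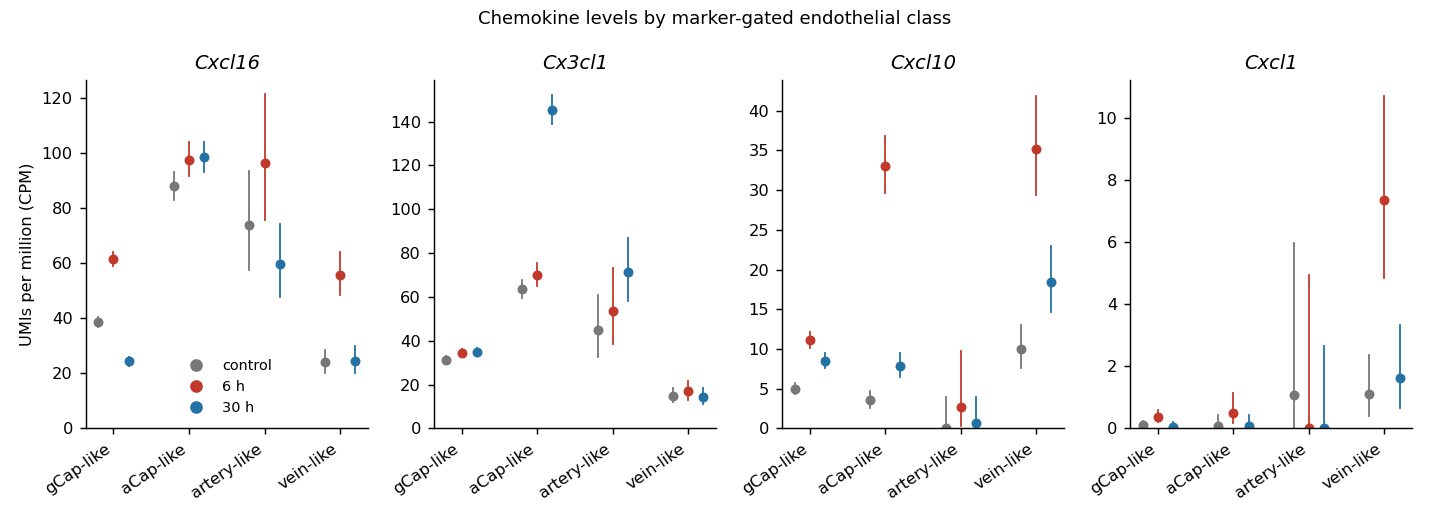
Levels of Cxcl16, Cx3cl1, Cxcl10 and Cxcl1 in CPM, by marker-gated class and library, in ECs without other-type RNA; each panel has its own axis from 0 and lines are exact 95% Poisson intervals. Cx3cl1 in aCap-like cells stood at 145 CPM at 30 h against 63.5 in the control, and Cxcl16 in gCap-like cells at 38.5, 61.5 and 24.4 CPM.

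Cxcl16 and Cx3cl1 were found in the same barcode more often than the product of their shares gives. After thinning, both were seen in 88 control ECs where the product gives 52.8, in 151 ECs at 6 h (76.6) and in 104 ECs at 30 h (52.4), or 1.67, 1.97 and 1.99 times the product. The barcodes of a library share its depth and its mix of classes. Across the 12 sums of 4 classes and 3 libraries, Pearson's r between the 2 genes was 0.770, a description over sums that share libraries.

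Cxcl10, an interferon-induced attractant of T cells, was highest at 6 h. Its level was 6.64 CPM in the control (603 UMIs), 14.8 CPM at 6 h (1289 UMIs) and 6.68 CPM at 30 h (544 UMIs). The 6 h level was 2.22 times the control (2.02 to 2.45), and 3.63 times (3.21 to 4.11) without other-type RNA, where the levels were 4.59, 16.6 and 8.41 CPM. At 30 h the ratio was 1.01 (0.894 to 1.13), and 1.83 (1.60 to 2.10) without other-type RNA. Few barcodes held it: 94, 232 and 33 endothelial barcodes had a UMI, or 0.837%, 2.19% and 0.356%, and 0.344%, 0.963% and 0.175% after thinning. Outside the gate 0 of 213, 4 of 279 and 0 of 205 thinned barcodes had one, where 0 allows up to 1.41% and 1.46%. Of the endothelial barcodes with Cxcl10, 54, 121 and 18 held 1 UMI of it. Cxcl10 in empty droplets was at 3.18, 16.9 and 6.98 CPM, and the part of free RNA in these shares was not tested.

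Within those few barcodes the UMIs were concentrated. The barcode with the most Cxcl10 UMIs held 222 in the control, 212 at 6 h and 288 at 30 h. At 30 h, 5 barcodes with 20 or more UMIs held 91.0% of all Cxcl10 UMIs, against 60.4% in 2 barcodes in the control and 51.6% in 11 barcodes at 6 h. Without the highest barcode of each library the levels were 4.19, 12.3 and 3.14 CPM, with ratios to the control of 2.94 (2.61 to 3.31) at 6 h and 0.749 (0.637 to 0.880) at 30 h, so the 6 h difference did not rest on a single barcode.

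**Figure D3:**
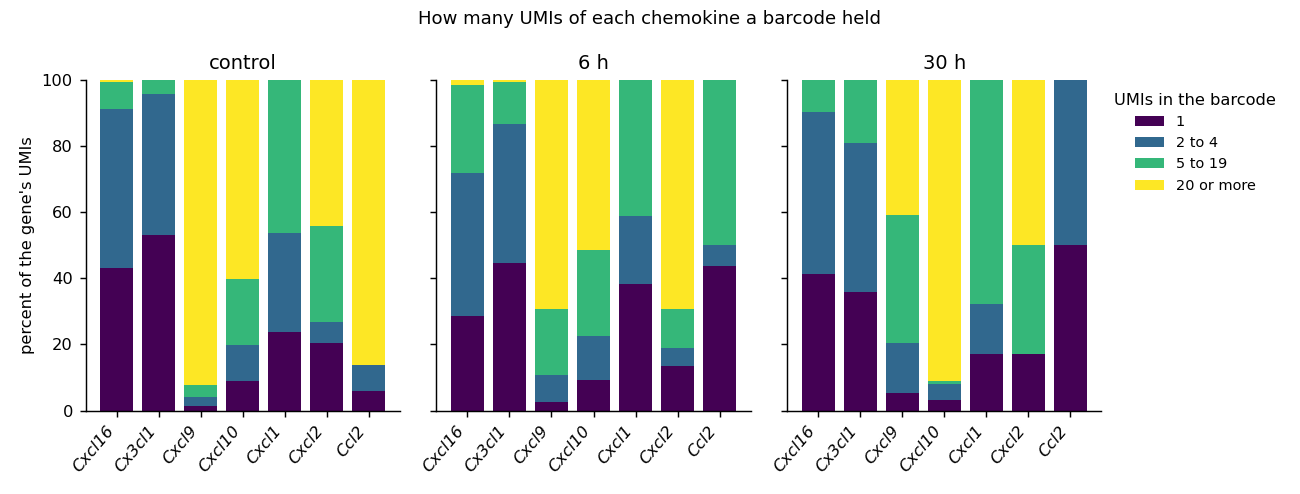
Percent of each member's UMIs that came from endothelial barcodes with 1, 2 to 4, 5 to 19 or 20 or more UMIs of it, for the 7 members with more than a few UMIs, in each library. Cxcl16 and Cx3cl1 came mostly from barcodes with 1 to 4 UMIs, while barcodes with 20 or more held 60.4%, 51.6% and 91.0% of Cxcl10 UMIs.

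Vein-like cells had the highest Cxcl10 level of the named classes in each library, 10.0, 35.2 and 18.4 CPM, and 2.52%, 4.29% and 0.475% of them had a UMI. At 6 h they did not differ from aCap-like cells beyond counting error (aCap-like over vein-like 0.939, 0.764 to 1.16), but without the highest barcode of each class aCap-like cells were at 12.1 CPM (122 UMIs) and vein-like cells at 22.2 CPM (81 UMIs). At 30 h, 77 of the 80 Cxcl10 UMIs in vein-like cells were in 1 barcode, and without the highest barcodes vein-like cells were at 0.693 CPM there, below aCap-like cells at 3.72 CPM. Levels in gCap-like cells were 5.01, 11.1 and 8.53 CPM and in aCap-like cells 3.53, 33.0 and 7.89 CPM, and here too single barcodes carried much, 288 of 310 UMIs in gCap-like cells at 30 h and 212 of 334 in aCap-like cells at 6 h. Without the highest barcode of each class and library, the 6 h level was 4.31 times the control in gCap-like (3.43 to 5.46), 4.34 times in aCap-like (2.98 to 6.46) and 2.88 times in vein-like cells (1.96 to 4.29). In the unclassed barcodes it was 16.8 times the control, from 58 against 3 UMIs (5.46 to 83.6). The 30 h level in aCap-like cells moved from 2.24 times the control (1.57 to 3.23) to 1.34 times (0.855 to 2.11). That in gCap-like cells turned from 1.70 times the control (1.43 to 2.02) to 0.301 times (0.180 to 0.483), and in vein-like cells from 1.84 times to 0.0903 times (0.0179 to 0.283). Artery-like cells held 0, 2 and 1 Cxcl10 UMIs.

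Cxcl9, the other CXCR3 ligand, was also found in few endothelial barcodes, 17, 17 and 37. It was at 4.33 CPM in the control (393 UMIs), 2.15 CPM at 6 h (188 UMIs) and 3.06 CPM at 30 h (249 UMIs). The ratio of 0.498 at 6 h (0.416 to 0.594) rested on 1 control barcode with 221 of the 393 UMIs, which also held 3 UMIs of epithelial markers: without the highest barcode of each library the ratio was 0.768 (0.606 to 0.972), and without other-type RNA 1.19 (0.960 to 1.48). At 30 h the ratio to the control was 0.706, and 1.61 (1.32 to 1.98) without other-type RNA. No Cxcl9 UMI was found outside the gate in any library. After thinning, the share of ECs with Cxcl9 was 0.0816%, 0.106% and 0.240%, and the empty droplets had 3.06, 1.94 and 8.91 CPM.

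A few barcodes held many UMIs of both Cxcl9 and Cxcl10. Both were found in 3 control ECs, 7 at 6 h and 2 at 30 h, where the product of the shares gives 0.142, 0.373 and 0.132. These few barcodes held 75.8%, 81.9% and 42.6% of all Cxcl9 UMIs and 61.7%, 28.5% and 53.7% of all Cxcl10 UMIs. The highest control barcode held 221 Cxcl9 and 222 Cxcl10 UMIs and the next 75 and 142, the leading pair at 6 h held 61 and 212 and then 40 and 99, and the highest at 30 h held 102 and 288. Others held 1 of the 2 genes alone, such as a control aCap-like barcode with 46 Cxcl9 and 0 Cxcl10 UMIs and a gCap-like barcode at 6 h with 103 Cxcl10 and 0 Cxcl9 UMIs.

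**Figure D4:**
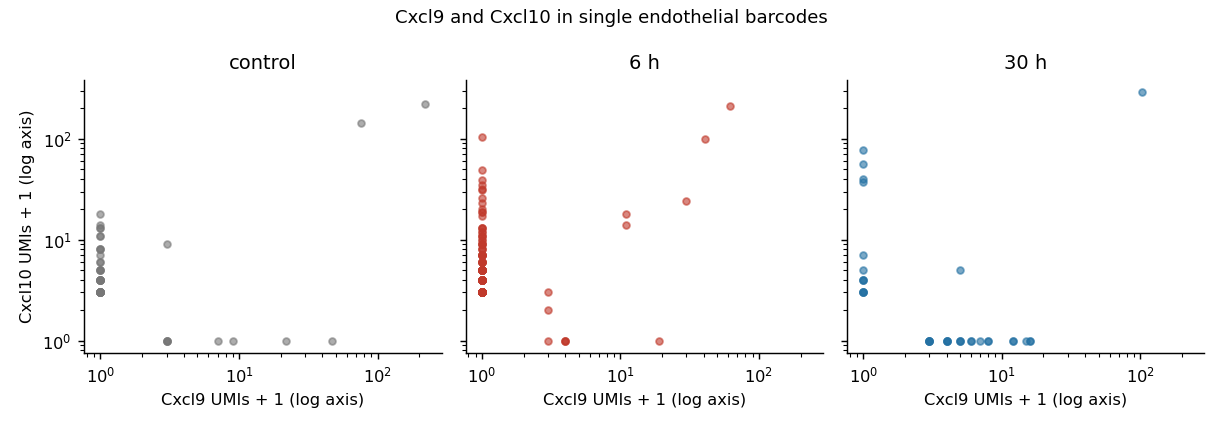
Cxcl9 against Cxcl10 UMIs in single endothelial barcodes with at least 2 UMIs of either, on log axes after adding 1, in each library. The barcode at the upper right of each panel held 221 and 222 UMIs in the control, 61 and 212 at 6 h and 102 and 288 at 30 h, and most other points lie on an axis, with 1 of the 2 genes.

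Cxcl1 and Cxcl2, the neutrophil attractants, were rare in ECs. Cxcl2 had 127 UMIs in the control (1.40 CPM), 380 at 6 h (4.35 CPM) and 112 at 30 h (1.37 CPM), a ratio of 3.11 at 6 h (2.54 to 3.84). Without the doublets that Scrublet called, the log2 difference at 6 h was 0.34 in place of 1.16, below 1.5-fold. Barcodes with myeloid markers held 74.8%, 67.1% and 83.0% of these UMIs, though they were 1.44%, 3.75% and 1.71% of endothelial barcodes. The barcodes outside the gate had far more Cxcl2, 95.2, 629 and 78.6 CPM. The 4 neutrophil markers summed to 5.62, 41.1 and 10.4 CPM in endothelial barcodes and the 8 macrophage and monocyte markers to 85.1, 105 and 56.3 CPM, and none of the 12 was at 0.

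In ECs without other-type RNA, Cxcl2 stood at 0.281, 1.63 and 0.219 CPM, from 21, 107 and 14 UMIs. That ratio at 6 h, 5.80 (3.61 to 9.75), included 44 UMIs of 1 unclassed barcode, which also held 9 Cxcl1 UMIs. The gCap-like cells had 16, 24 and 9 Cxcl2 UMIs, with no more than 3 in a barcode, or 0.338, 0.566 and 0.248 CPM. Their ratios to the control were 1.67 (0.852 to 3.37) at 6 h and 0.732 (0.285 to 1.76) at 30 h. The ratio of 30 h to 6 h was 0.438 (0.179 to 0.975). Cxcl2 in empty droplets was at 12.4, 24.7 and 8.91 CPM, and the part of free RNA in these low levels and ratios was not tested.

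Cxcl1 had 67 UMIs in the control (0.737 CPM), 102 at 6 h (1.17 CPM) and 53 at 30 h (0.650 CPM). The 6 h level was 1.58 times the control (1.15 to 2.19), and 2.21 times (1.44 to 3.45) without other-type RNA. The 30 h level was 0.882 times the control (0.603 to 1.28), and 0.448 times (0.217 to 0.870) without other-type RNA. Barcodes with stromal markers held 43.3%, 22.5% and 62.3% of its UMIs, and those without other-type RNA 50.7%, 64.7% and 24.5%. Among the named classes, vein-like cells had the highest level in each library, 1.10, 7.36 and 1.61 CPM, from 6, 27 and 7 UMIs. From 1 UMI each, artery-like cells were at 1.07 CPM in the control and LEC-like cells at 3.63 CPM at 6 h. The unclassed barcodes had 2.86, 2.13 and 0.366 CPM. Single barcodes held 4, 17 and 5 of the vein-like UMIs. Without them the sums were 2, 10 and 2 UMIs, or 0.366, 2.74 and 0.462 CPM. In the control and at 6 h these are below the artery-like and LEC-like values. The vein-like ratio at 6 h was then 7.48, with a wide interval (1.59 to 70.2). Cxcl1 and Cxcl2 were found together in 1, 4 and 1 endothelial barcodes. Cxcl1 in empty droplets was at 1.22, 8.49 and 2.08 CPM, and the part of free RNA in the Cxcl1 levels and ratios was not tested.

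Ccl2 and Ccl7, the monocyte attractants, were near the limit of detection. Ccl2 had 101 UMIs in the control, of which 87 were in 1 unclassed barcode of 20976 UMIs that also held 29 Cxcl16, 10 Cxcl1 and 2 Ccl7 UMIs. It had 48 UMIs at 6 h and 6 at 30 h, or 1.11, 0.550 and 0.0736 CPM. Without the highest barcode the sums were 14, 38 and 3 UMIs, which turned the ratio at 6 h from 0.494 (0.343 to 0.704) to 2.82 (1.495 to 5.64) and moved that at 30 h from 0.0662 (0.0237 to 0.149) to 0.239 (0.0440 to 0.856). Without other-type RNA the sums were 97, 12 and 5 UMIs, a ratio at 6 h of 0.141 (0.0703 to 0.257), with the 87 UMIs of that control barcode still among them. Myeloid barcodes held 24 of the 48 UMIs at 6 h, and the barcodes outside the gate had 3.49, 28.5 and 0 CPM. Ccl2 in empty droplets was at 1.96, 6.43 and 5.34 CPM, and the part of free RNA in these sums and ratios was not tested. Ccl7 had 5, 9 and 3 endothelial UMIs, and 0, 16 and 1 outside the gate, so that no difference in ECs was detectable at this depth.

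**Figure D5:**
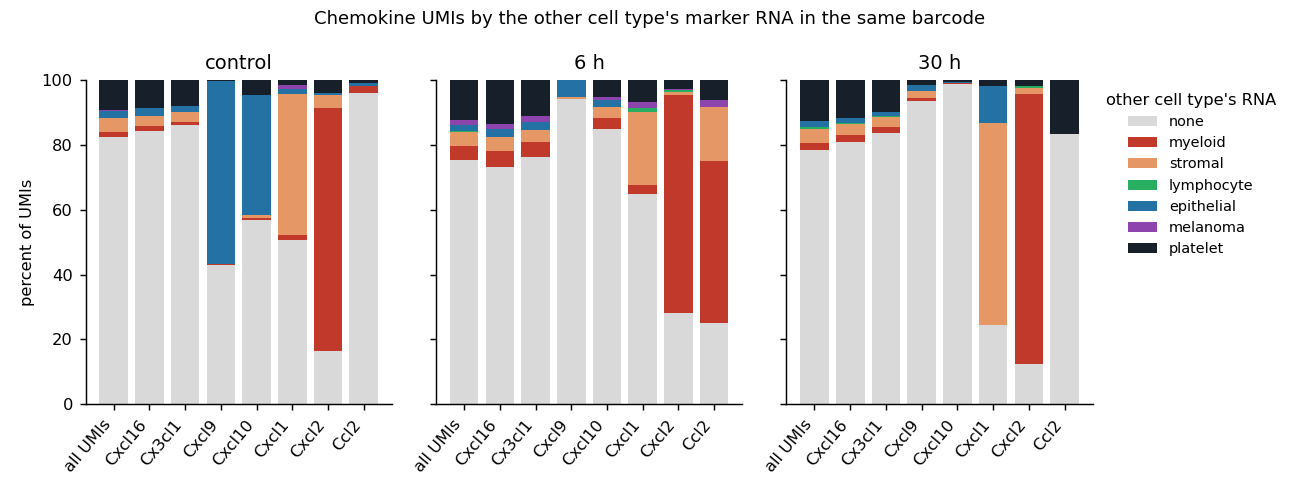
Percent of all endothelial UMIs and of each member's UMIs by the other cell type whose markers the same barcode held, in each library. Barcodes with none held 84.1%, 73.0% and 80.8% of Cxcl16 UMIs, near their share of all UMIs, whereas myeloid barcodes held 74.8%, 67.1% and 83.0% of Cxcl2 UMIs and stromal barcodes 43.3%, 22.5% and 62.3% of Cxcl1 UMIs.

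Ackr1 had 12, 11 and 6 endothelial UMIs. Vein-like cells held 10 of the 12, 10 of the 11 and 4 of the 6, which gives 1.83 CPM (0.875 to 3.36), 2.73 CPM (1.31 to 5.02) and 0.922 CPM (0.251 to 2.36). The intervals overlap, so no difference between libraries was detectable at this depth. In the control, 7 of the UMIs were in 1 barcode, and without the highest barcode of each library the sums were 5, 8 and 4 UMIs. The gCap-like cells held 1 UMI in the control and 0 in the other libraries.

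The other genes of the pathway were read from lists. Of 20 chemokine receptors and atypical receptors, 5 averaged 5 CPM or more, 0 of which were past 1.5-fold at 6 h and 1 at 30 h: Ackr4, a scavenger of CCL19 and CCL21, with 16.4, 14.3 and 27.5 CPM (1.68 times the control at 30 h, 1.57 to 1.79). Receptors of leukocytes were rare. Ccr2, the monocyte receptor of CCL2, was at 0.154, 1.85 and 0.160 CPM in endothelial barcodes and at 0.0803, 0.167 and 0.0626 CPM without other-type RNA. Ccr1, a receptor of myeloid cells, was at 0.176, 1.02 and 0.0982 CPM, and Ccr7, which guides lymphocytes and dendritic cells to lymph nodes, at 0.473, 0.882 and 1.93 CPM. Without other-type RNA, Ccr1 was at 0.0401, 0.0609 and 0.0313 CPM and Ccr7 at 0.107, 0.0914 and 0.298 CPM. Of 25 other chemokine ligands found, 5 averaged 5 CPM or more. Among these Cxcl12, which retains CXCR4+ cells, had 274, 293 and 967 CPM, 3.53 times the control at 30 h (3.48 to 3.58), while Cxcl15, a ligand of airway epithelium, had 11.3, 7.40 and 4.47 CPM (3.18, 3.41 and 3.05 CPM without other-type RNA). Ccl5 and Ccl4, ligands made by activated leukocytes, had 2.20, 3.46 and 0.614 CPM and 0.220, 1.16 and 0.0982 CPM. Without other-type RNA they had 0.856, 0.548 and 0.705 CPM and 0.0937, 0.0457 and 0.0626 CPM. There neither was highest at 6 h, and the order of such low levels was not tested.

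Some genes of the NF-kB and interferon gamma lists were higher at 6 h, and more of them were lower at 30 h than at 6 h. Over all genes of at least 5 CPM, 1.80% were higher and 1.14% lower at 6 h, and 4.61% were lower at 30 h than at 6 h. Against the control, 4.24% of these genes were higher and 4.39% lower at 30 h. Of 14 NF-kB feedback genes and partners at 5 CPM or more, 4 were higher past 1.5-fold at 6 h and 0 lower, and 8 were lower at 30 h than at 6 h. At 30 h against the control 0 were higher and 3 lower. Bcl3, a nuclear cofactor of NF-kB, had 25.7, 65.5 and 23.2 CPM and Tnfaip3, an inhibitor of the pathway, 11.1, 21.6 and 11.7 CPM. Nfkb2, a subunit, had 15.9, 26.2 and 15.8 CPM, and Nfkbiz, another nuclear cofactor, 97.4, 123 and 47.5 CPM. Of 17 interferon gamma response genes at 5 CPM or more, 4 were higher at 6 h and 0 lower, and 11 were lower at 30 h than at 6 h. At 30 h against the control 0 were higher and 4 lower. Gbp2, an interferon-induced GTPase, had 82.5, 143 and 83.6 CPM and Ciita, the switch of MHC class II genes, 9.59, 17.9 and 11.2 CPM. Irf8, a transcription factor of the interferon response that averaged under 5 CPM, had 3.16, 6.94 and 3.74 CPM, and Iigp1, an interferon-induced GTPase, 307, 365 and 157 CPM. The median log2 ratios of these lists at 6 h were 0.26 and 0.43, against -0.01 over all genes of at least 5 CPM, and at 30 h against the control -0.13 and -0.27, against -0.07.

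Of 4 leukocyte adhesion genes at 5 CPM or more, 1 was higher at 6 h, and 1 was higher and 2 lower at 30 h against the control. Sele, E-selectin, averaged under 5 CPM and is not among these 4, with 0.495, 6.53 and 0.663 CPM. Selp, P-selectin, had 13.9, 26.9 and 4.71 CPM. Of all 7 genes of the list, 2 were higher past 1.5-fold at 6 h. Icam1, which binds leukocyte integrins, had 260, 360 and 141 CPM, and Icam2, its constitutive relative, 663, 737 and 1065 CPM. None of the 12 cytokine receptors at 5 CPM or more was past 1.5-fold at 6 h or at 30 h against the control. Of the 10 sheddases and mRNA decay factors, 1 was, Zfp36, which destabilizes cytokine mRNA, with 380, 502 and 247 CPM. A list of 10 genes that cell dissociation can induce summed to 6957, 9864 and 4978 CPM, the same order of libraries as for Cxcl16, and its part in the results was not tested.

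Barcodes with Cxcl10 also had higher levels of interferon gamma response genes. This comparison was chosen after its values had been seen and sets ECs without other-type RNA that had a Cxcl10 UMI (73, 175 and 28) beside those that had none, whose median depths were lower (9748, 8825 and 9990 against 7576, 7762 and 8518 UMIs). All 17 genes of the list were higher in the positive cells in each library, 12, 15 and 15 of them past 1.5-fold on the log2(CPM + 10) scale, where 2.21%, 1.63% and 5.66% of all genes were. Other lists were higher too: all 4 leukocyte adhesion genes in each library (median log2 ratios of 1.99, 0.82 and 1.68), 11, 12 and 12 of the 14 NF-kB genes, and 7, 9 and 6 of the 10 dissociation genes (medians of 0.17, 0.48 and 0.20). Gbp5, an interferon-induced GTPase, had 161 CPM against 24.3 in the control, 220 against 34.8 at 6 h and 345 against 14.2 at 30 h. Cd274, which encodes PD-L1, was 3.63 times (2.71 to 4.76), 4.44 times (3.81 to 5.15) and 6.89 times (4.802 to 9.59) as high. Without the barcode with the most Cxcl10, all 17 were still higher and 11, 15 and 14 were past 1.5-fold.

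The same list was near level in cells with the transmembrane members. In cells positive for Cxcl16, 0, 0 and 1 of the 17 genes were past 1.5-fold higher, where 1.30%, 0.934% and 2.15% of all genes were. Past 1.5-fold lower were 0, 0 and 1. The median log2 ratios were -0.11, -0.06 and -0.03, and for Cx3cl1 they were -0.04, -0.03 and -0.02. The 4 leukocyte adhesion genes were all higher with Cxcl16 in each library (medians of 0.28, 0.44 and 0.68). With Cx3cl1, 2, 4 and 2 of the 4 were higher. Cells positive for Cxcl1 (13, 37 and 7) had Vcam1, an adhesion molecule of inflamed endothelium, at 1279, 1404 and 337 CPM against 45.6, 59.6 and 38.8 CPM in those without. Those are 28.0, 23.6 and 8.68 times the level, and 12.2, 22.4 and 4.44 times without the highest Cxcl1 barcode. Of the 4 leukocyte adhesion genes, 3 were higher in Cxcl1-positive cells in each library, and 2, 3 and 2 without that barcode. Without it, Icam2 was at 0.609, 0.851 and 0.835 times the level, and Selp had 0, 13 and 0 UMIs in these cells. All 14 NF-kB genes were higher in Cxcl1-positive cells in the control and at 6 h, and 5 of 14 at 30 h. Without the highest Cxcl1 barcode 12, 14 and 5 were higher. Past 1.5-fold higher were 10, 9 and 2 of the 14 (7, 8 and 3 without that barcode), where 13.4%, 6.00% and 14.7% of all genes were, and past 1.5-fold lower 0, 0 and 5. Of the 10 dissociation genes, 8 were higher in these cells in each library.

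Genes that were higher in cells with a transmembrane member in each library included several aerocyte markers. The 5 with the largest smallest ratio over the libraries included Chst1, AW112010, Fibin and Apln for Cxcl16 and were, for Cx3cl1, Rgs6, Slc22a23, Ednrb, Igfbp7 and Fibin. Of these, Chst1, Fibin, Apln and Ednrb are on the aCap marker list. Chst1, a sulfotransferase, had 91.2, 83.2 and 141 CPM in Cxcl16-positive cells and 30.3, 32.8 and 34.4 CPM in the others. Over the 12 sums of class and library, the genes most like Cx3cl1 among 6992 were Unc5b (r = 0.974), Tmed10 (0.956) and Mgll (0.946), those most like Cxcl16 Endod1 (0.927), Rtn4 (0.924) and Ly6c1 (0.907), and those most like Cxcl10 Serpinb9 (0.874), Slco3a1 (0.837) and Ier5 (0.831), although the Cxcl10 sums rest on the single barcodes given above. The nearest to Cxcl2 and Cxcl9 were Gbp6 (0.8999) and Uso1 (0.873), over sums that reached only 0.818 and 6.33 CPM of the member.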

How the data were processed

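The deposited values were UMI counts per gene and barcode. Per the labels, the authors processed the data with Cell Ranger 7.2.0 and Seurat 4.4.0 on mm10; the matrix headers also name Cell Ranger 7.2.0, whereas the study's methods name other versions of both tools. The matrices were unfiltered (1792904 to 1911655 barcodes listed, 32285 genes), and whether intronic reads were counted is not given in the sources used here. Groups came from the treatment label.

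Barcode limits are given with the results, and 2 UMIs of other-type markers (Lyz2, Scgb1a1 and Sftpc not counted) set barcodes apart. Doublets were not taken out; Scrublet (scanpy 1.11.5) was an alternative. UMIs were added up within each library and class and expressed as CPM with Python 3.11.15 (numpy 2.4.6, scipy 1.17.1). Classes needed 3 detected markers and, per 10000 UMIs, 20 marker UMIs (gCap, aCap), 15 (vein) or 10 (artery, LEC), limits set after the data were seen. Intervals were Poisson for sums, conditional binomial for ratios and Clopper-Pearson for shares, and the limit of a count of 0 was 3 counts. TMM factors came from edgeR 4.0.16. Summing and intervals were tested on simulated data.

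The 9 members and all lists were chosen with earlier results of these data known. All members are named. Pathway genes are the up to 4 per list with the largest change past 1.5-fold in a library against the control and at least 100 UMIs. Genes like a member, with means of at least 20 CPM, were the 3 highest in Pearson's r of log2(CPM + 10), for members with at least 300 UMIs. Partner genes were the 5 ranked highest by their smallest ratio over the libraries, for members with at least 50 positive barcodes in each; 1 of them is not reported here. Promoters span 250 bases before to 50 after the start, and positions are from GENCODE.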

Additional observations from a re-analysis of the deposited data

Results flagged for a closer look

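Outside the endothelial barcodes, some members had higher levels after melanoma cells than in the control. The EC comparisons did not count such barcodes or empty droplets, but free RNA made up an estimated 4.62%, 5.28% and 7.55% of endothelial UMIs. In barcodes outside the gate at 6 h, Cxcl2 was at 628.8 CPM against 95.2 in the control, Ccl2 at 28.52 against 3.49, and Ccl7 at 10.37 against 0. At 6 h these were 970 UMIs in 21 barcodes, 44 UMIs in 10 and 16 UMIs in 3. The highest barcode held 181, 20 and 8 of them. Only the 6 h library had sorted melanoma cells added. Among endothelial barcodes at 6 h, those with myeloid markers held 255 Cxcl2 and 24 Ccl2 UMIs, and those with melanoma markers 1 of each. The part of either cell type outside the gate was not tested.

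In empty droplets at 6 h, Cxcl16 was at 112.8 CPM against 60.1 in the control, Cxcl2 at 24.74 against 12.4, Cxcl10 at 16.85 against 3.18, Cxcl1 at 8.488 against 1.22, Ccl2 at 6.427 against 1.96, and Ccl7 at 3.153 against 0.612. At 30 h, Cx3cl1 was at 44.38 CPM in empty droplets against 27.9, Cxcl9 at 8.905 against 3.06, Cxcl10 at 6.976 against 3.18, and Ccl2 at 5.343 against 1.96. No library was replicated, so these differences were not tested.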

How the results depend on the processing

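No paired analysis was possible because each group has 1 library. Counting error is the only error measured, rare members rest on few barcodes, and the 30 h library has no control of its own time. Of the counts per comparison, 59 under other settings were within 1.5 times the reported count and 23 were not; of the log2 ratios of single members over all endothelial barcodes, and of classes under stricter limits, 217 stayed within their counting interval, 63 left it, and 5 whose own interval excluded 0 changed sign. Values whose interval included 0, such as Cxcl10 at 30 h (-0.33 without the highest barcode), are not among these 5, nor are class values without a barcode. On the log2(CPM + 1) scale, Cxcl9 at 6 h turned to 0.18 and at 30 h against the control to 0.51 without other-type RNA, and to 0.012 at 30 h with the mean of barcode CPM. Ccl2 turned to 0.31 at 6 h without the highest barcode, a setting chosen after seeing the data, and to 0.064 at 30 h against 6 h from 300 genes.

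At 6 h, 3 members were higher, and 2 without called doublets, with a 2-fold limit or CPM + 5, and 4 from 300 genes. The member lost was Cxcl16 at the 2-fold limit and Cxcl2 in the other 2 settings. There 1 was lower, and 0 with the mean of barcode CPM, a 2-fold limit, CPM + 5 or without the highest barcode, and 2 with empty droplets subtracted. At 30 h against the control, 1 was higher, and 2 from 300 genes or without other-type RNA, and 0 with the mean of barcode CPM, a 2-fold limit or CPM + 5. There 1 was lower, and 0 from 300 genes, with those last 3 settings or without the highest barcode, and 2 with empty droplets subtracted. Members whose thinned shares had separate intervals numbered 2 above the control at 6 h (5 without thinning), 1 above it at 30 h (2 without thinning or at 4000 UMIs) and 1 below it (2 at 4000 UMIs). At 30 h against 6 h, 1 was above (2 without thinning or at 4000 UMIs) and 3 were below (5 without thinning).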
